A study of Mus musculus with 26 samples.

Results

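Arrays of CLP were set against arrays of GMP, gene by gene, to see how a lymphoid progenitor of mouse bone marrow differs from a myeloid one. The titles gave 3 CLP and 3 GMP arrays, which is 6 of the 26 arrays of the study. CLP usually stands for the common lymphoid progenitor and GMP for the granulocyte-macrophage progenitor. The CLP samples were bone marrow cells of male C57/Bl6 mice aged 2 months, untreated as far as the labels say, and in their population label they are called ALP. The GMP samples carry the same tissue, strain, sex and age. The study profiled 8 progenitor populations of marrow and thymus on Affymetrix arrays, alongside work on DNA methylation, and the other 6 populations are MPPFL-, MPPFL+, CMP, DN1, DN2 and DN3. The sort markers and any pooling of animals are not given in the sources used here. Since nothing says that replicates came from separate mice, p-values measure only the spread between these samples, which may be technical.

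Lymphoid progenitors of the marrow are the source of B cells, T cells and NK cells. They respond to Flt3 ligand and interleukin 7 and begin to express the enzymes that cut and join antigen receptor genes. GMP give rise to neutrophils and monocytes, and under the control of C/EBP factors and PU.1 they make the proteases, peroxidase and lysozyme that fill primary granules.

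Values are log2 signals per probe set as deposited, and 1 probe set stood for each of 18193 genes. The lowest value, 2.17, recurs on every array and is called the floor here. It was taken by 35.6% to 36.7% of probe sets on CLP arrays and by 35.7% to 36.2% on GMP arrays. Genes passed at a Benjamini-Hochberg adjusted p under 0.05 in limma, two-sided, fitted on all 26 arrays. Where the lower group was near the floor (within 1 log2 unit) on each of its arrays, the change is given as "at least N-fold", a bound with regard to the floor only. Each of the 6 arrays was nearest to another array of its own population, with correlations across genes of 0.996 to 0.997 among CLP arrays and of 0.997 to 0.998 among GMP arrays.

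Control probe sets separated the same groups. The poly-A spike-in RNAs, added before labelling, averaged 4.20, 4.66 and 4.40 on the CLP arrays, against 8.17, 8.12 and 7.85 on the GMP arrays. Signal of the actin control was higher at its 3' than at its 5' end by 2.51, 2.84 and 2.74 on CLP arrays, against 1.47, 1.47 and 1.52 on GMP arrays, and for Gapdh that excess was 3.06, 3.49 and 3.45 on CLP arrays against 2.05, 1.85 and 1.94 on GMP arrays. Neither measure overlapped between the groups, so spike level and 3' bias cannot be told apart from population within these 6 arrays. Across all arrays the CLP arrays shared their spike level with MPPFL- and MPPFL+, and the GMP arrays stood alone. A fit with spike cluster as a random block left 2317 genes passed, and one with the actin excess as a covariate left 4355, against 5152 without either.

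CLP and GMP differed in 5152 of the 18193 genes (28.3%). Of these, 3043 were higher in CLP (16.7% of genes tested) and 2109 lower (11.6%). The difference reached at least 1 log2 unit in 2071 genes higher in CLP (11.4%) and 1191 lower (6.55%), and at least 5 units in 109 genes higher (0.599%) and 95 lower (0.522%). Arrays of the 2 groups did not overlap for 4597 genes higher in CLP (25.3%) and 3143 lower (17.3%). The median difference over all genes was 0. Over the genes at or above the median level it was 0.17, and 0.11 after quantile normalization, so a difference of that size says little. A total of 4125 genes lay at the floor on all CLP and GMP arrays. The plot of mean levels shows a broad cloud along the diagonal with 2 arms of genes that were high in one population and near the floor in the other.

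**Figure D1:**
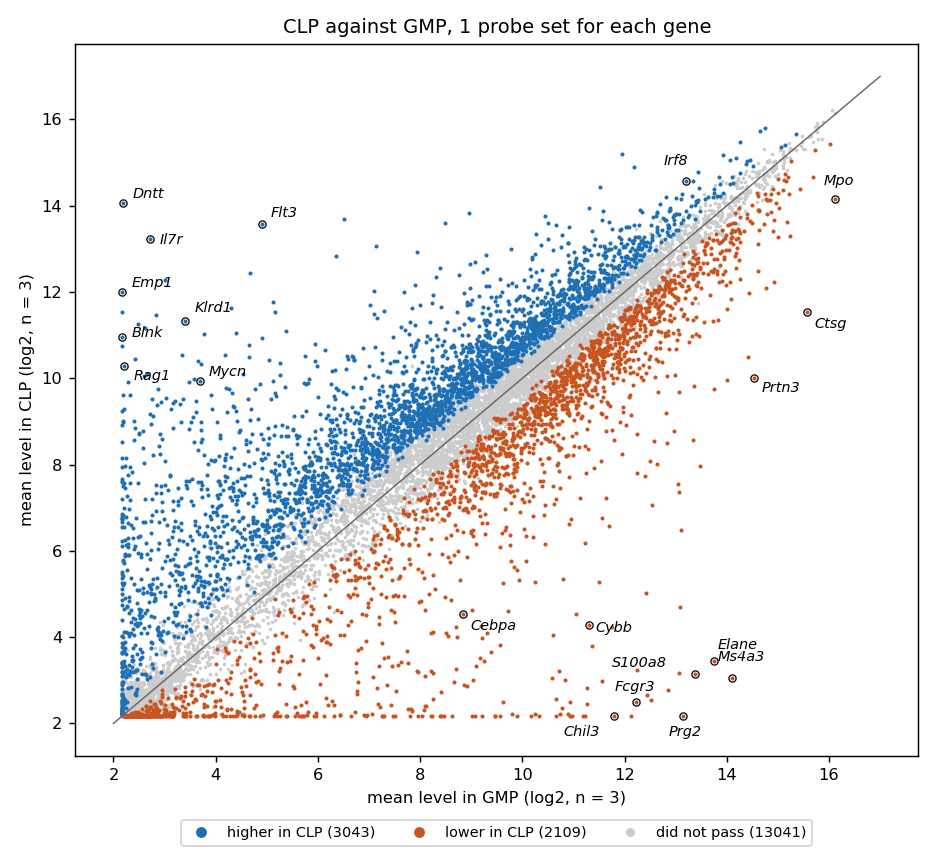
Mean log2 level in CLP (vertical axis, n = 3) against mean log2 level in GMP (horizontal axis, n = 3), 1 point for each of 18193 genes. Blue points are the 3043 genes higher in CLP, orange points the 2109 lower in CLP, and grey points the 13041 that did not pass. Dntt and Il7r lie at the upper left, and Ms4a3, Elane and Prg2 at the lower right.

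The 12 largest rises in CLP began with Dntt, which encodes the terminal transferase that adds bases at the joints of antigen receptor genes. Dntt measured 13.98, 14.09 and 14.11 on the CLP arrays, against 2.22, 2.17 and 2.19 on the GMP arrays. It was high on every CLP array and near the floor on every GMP array, at least 3730-fold higher in CLP (limma adjusted p = 2.39e-18). Il7r, the interleukin 7 receptor alpha chain, measured 13.20, 13.19 and 13.30 in CLP, against 2.83, 2.77 and 2.56 in GMP, and was at least 1460-fold higher (limma adjusted p = 7.15e-10). Flt3, the receptor for Flt3 ligand, measured 13.60, 13.56 and 13.58 in CLP, against 4.78, 4.43 and 5.48 in GMP, a rise of 8.68 on the log2 scale (SE 0.40, limma adjusted p = 2.31e-12). In bulk RNA of this kind, fewer cells with a transcript and less transcript per cell cannot be told apart.

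The rest of these 12 were a mix of lymphoid genes and genes with other roles. Emp1, a membrane protein with 4 spans known from epithelia, was at 12.20, 11.81 and 12.01 in CLP and at or near the floor on the GMP arrays, at least 910-fold higher. Cmah, which hydroxylates sialic acid, was at least 660-fold higher, and Mn1, a transcriptional coactivator known from human leukaemia, at least 619-fold. Blnk, the adaptor protein of the B cell receptor, and Sdc1, the syndecan known as a plasma cell marker, were each at least 440-fold higher. Gimap6 and Gimap8, GTPases of lymphocytes, were at least 401-fold and 376-fold higher. Ddx4, an RNA helicase known from germ cells, measured 10.93, 10.38 and 10.96 in CLP, against 2.17, 2.17 and 2.19 in GMP. A pass and non-overlapping arrays were conditions for entry among these 12. For Emp1, Cmah, Mn1 and Ddx4 limma adjusted p lay between 1.25e-13 and 8.39e-12.

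Largest among the falls was Ms4a3, a membrane protein that marks GMP in mice. It was at 3.06 on each CLP array, against 14.16, 14.05 and 14.10 on the GMP arrays, at least 2110-fold lower in CLP (limma adjusted p = 5.33e-12). Hp, the haemoglobin scavenger haptoglobin, was at least 1000-fold lower, Gda, a guanine deaminase, at least 1070-fold, and Sgms2, a sphingomyelin synthase, at least 994-fold. Trem3, a receptor of myeloid cells, was at least 876-fold lower. Dmkn, a secreted protein known from skin, was at the floor on every CLP array, against 11.08, 11.33 and 11.26 in GMP, at least 531-fold lower. Of the genes in this paragraph, the plot of 16 genes by array holds only Ms4a3. Non-overlapping arrays were a condition for the largest falls, as for the rises.

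**Figure D2:**
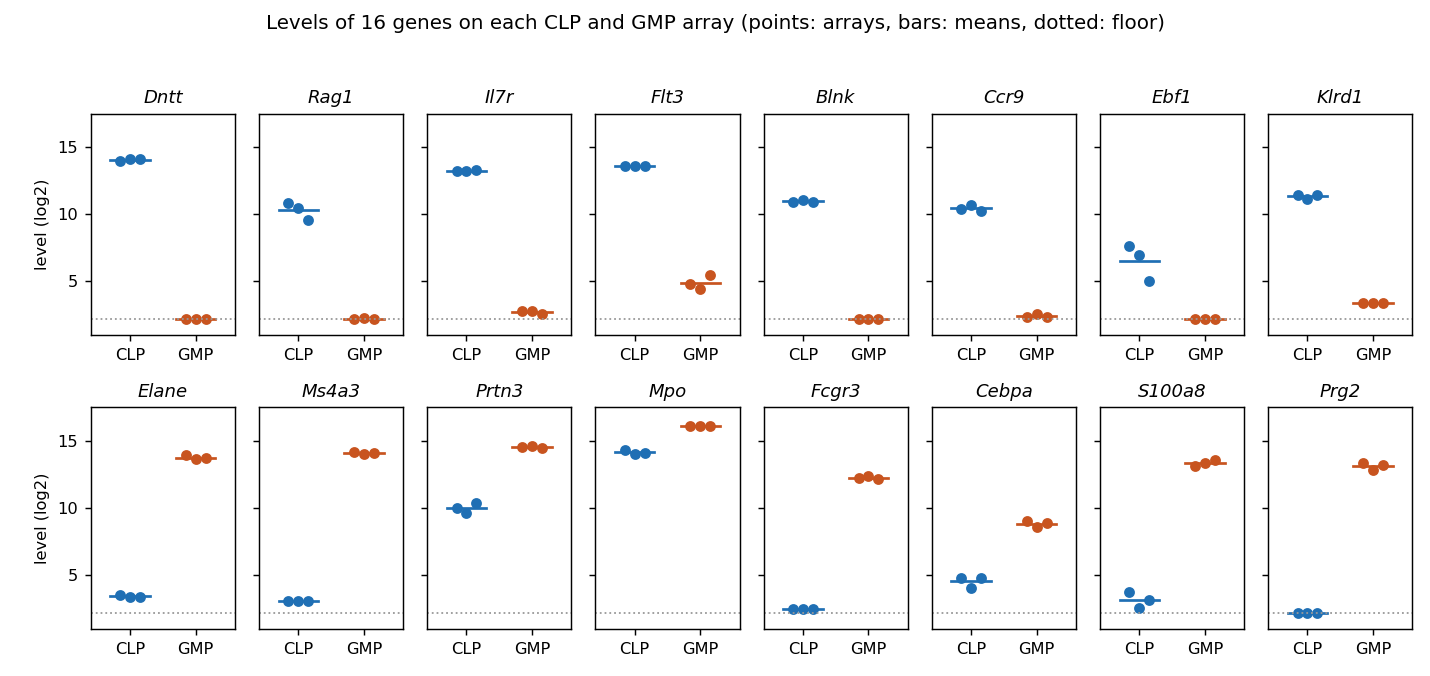
Log2 levels of 16 genes on each CLP array (blue) and each GMP array (orange), with bars at the group means (n = 3 each) and a dotted line at the floor. The groups do not overlap in any panel, and Ebf1 shows the widest spread among CLP arrays, 5.02 to 7.64. The 16 genes were picked, and non-overlapping arrays were a condition for those from the largest rises and falls. Among all genes, arrays did not overlap for 25.3% higher in CLP and 17.3% lower.

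Genes of the primary granule list, which also holds the GMP marker Ms4a3 (difference -11.04), were lower in CLP almost throughout. Of 11 measured, 10 fell and 0 rose, with a median difference of -2.29, where 11.6% of all genes tested fell and 16.7% rose with a median of 0. The counts of every list below are to be read beside these shares. Dim genes are part of them, and with dim genes left out 2809 of 9097 genes rose and 1677 fell. Elane, neutrophil elastase, measured 3.53, 3.39 and 3.39 in CLP, against 13.93, 13.62 and 13.70 in GMP, and fell by 10.31 on the log2 scale (SE 0.77, limma adjusted p = 2.68e-09). The related serine proteases Prtn3 and Ctsg fell by less, and neither was near the floor in CLP. Prtn3 measured 10.02, 9.63 and 10.38 in CLP, against 14.52, 14.61 and 14.49 in GMP. Ctsg measured 11.29, 11.63 and 11.71 in CLP, against 15.68, 15.54 and 15.49 in GMP. Mpo, the peroxidase of these granules, was far above the floor on the CLP arrays too, at 14.31, 13.997 and 14.13, against 16.12, 16.13 and 16.08 in GMP. Its difference of -1.96 (SE 0.61, limma adjusted p = 0.0186) was no longer called without CLP replicate 2 (adjusted p = 0.0568), with the actin covariate (0.218) or with the spike block (0.145). The highest signals on the GMP arrays were 16.85 to 16.88, and whether an upper limit narrowed the differences of Ctsg and Mpo was not tested. Fcnb, a ficolin of granulocytes, was at or near the floor in CLP, against 8.44, 8.37 and 8.34 in GMP, at least 74.1-fold lower. Its very small SE of 0.013 pools many arrays at the floor, as it does for other genes silent in most populations. Serpinb1a, an inhibitor of these proteases, did not pass (difference -0.44).

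Elane, Prtn3, Ctsg and Mpo were all lower in CLP, by unequal amounts, and Prtn3 and Elane are adjacent on chromosome 10 with 0 protein-coding genes between them. The promoters of these genes are shown beside those of Dntt and Blnk, which are likewise adjacent on chromosome 19. Each line holds the 250 bases before the RefSeq transcription start in GRCm38.p6, 5' to 3' on the gene's strand. Capitals mark GAGGAA, the purine-rich letters that PU.1 binds and that overlap the core of other Ets factors, searched on both strands. Elane lies at chr10:79886062-79886311 (+), Prtn3 at chr10:79879417-79879666 (+), Mpo at chr11:87793534-87793783 (+), Ctsg at chr14:56102575-56102824 (-), Dntt at chr19:41029025-41029274 (+) and Blnk at chr19:40994222-40994471 (-).
Elane: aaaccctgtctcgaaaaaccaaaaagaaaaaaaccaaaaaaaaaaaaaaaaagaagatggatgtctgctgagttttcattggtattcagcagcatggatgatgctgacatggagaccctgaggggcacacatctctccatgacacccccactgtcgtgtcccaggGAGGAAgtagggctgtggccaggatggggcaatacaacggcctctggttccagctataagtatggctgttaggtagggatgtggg
Prtn3: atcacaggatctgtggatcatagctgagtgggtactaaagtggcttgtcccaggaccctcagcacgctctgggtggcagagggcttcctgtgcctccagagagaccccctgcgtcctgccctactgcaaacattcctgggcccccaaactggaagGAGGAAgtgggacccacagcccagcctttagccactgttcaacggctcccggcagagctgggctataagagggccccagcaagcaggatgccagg
Mpo: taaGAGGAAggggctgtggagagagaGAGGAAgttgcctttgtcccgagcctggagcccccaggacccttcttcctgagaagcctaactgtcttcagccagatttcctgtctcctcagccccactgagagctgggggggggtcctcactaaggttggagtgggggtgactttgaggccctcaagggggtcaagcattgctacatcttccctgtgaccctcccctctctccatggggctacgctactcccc
Ctsg: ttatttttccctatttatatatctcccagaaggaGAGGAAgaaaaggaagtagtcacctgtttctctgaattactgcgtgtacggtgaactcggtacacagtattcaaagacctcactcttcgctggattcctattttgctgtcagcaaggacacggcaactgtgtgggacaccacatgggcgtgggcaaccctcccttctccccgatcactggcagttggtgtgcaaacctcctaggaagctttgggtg
Dntt: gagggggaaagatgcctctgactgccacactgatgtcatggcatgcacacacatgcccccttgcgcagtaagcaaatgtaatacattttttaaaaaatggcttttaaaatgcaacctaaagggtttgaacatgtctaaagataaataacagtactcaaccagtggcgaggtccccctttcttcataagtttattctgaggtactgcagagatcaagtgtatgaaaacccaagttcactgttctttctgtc
Blnk: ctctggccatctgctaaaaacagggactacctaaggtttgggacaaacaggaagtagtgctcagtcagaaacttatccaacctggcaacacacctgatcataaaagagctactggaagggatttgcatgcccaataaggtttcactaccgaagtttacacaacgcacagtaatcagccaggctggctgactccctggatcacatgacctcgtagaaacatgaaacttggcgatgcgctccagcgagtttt
The letters GAGGAA begin at position -85 for Elane, -95 for Prtn3, -247 and -224 for Mpo and -216 for Ctsg, counted back from the start. They do not occur in these windows of Dntt and Blnk. They are common letters, present in 22.7% of the windows of 14452 tested genes. Among genes with a difference of at least 5, they occurred in 26.1% of 88 windows of genes higher in CLP and in 28.4% of 74 windows of genes lower in CLP. The letters TTGCNNAA of C/EBP factors occurred in 10.2% of the windows of genes higher in CLP and in 17.6% of those lower in CLP, with 8.07% among all. For CAGGTG of E proteins the shares were 20.5% of genes higher in CLP and 12.2% of genes lower in CLP, with 16.9% among all. The letters CCCNNGGG of Ebf1 were in 21.6% of the windows of genes higher in CLP and 20.3% of those lower in CLP, with 14.6% among all. TGTGGT of core binding factor was in 18.2% of the windows of genes higher in CLP and 21.6% of those lower in CLP, with 11.7% among all. All 5 motifs were searched on both strands, and these shares carry no test. A match is a description of letters and not a bound site.

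Genes of later neutrophil granules and cytosol, made as neutrophils mature, showed the same direction. Of 12 measured, 11 fell in CLP, with a median difference of -5.24. S100a8, a subunit of calprotectin, measured 3.73, 2.55 and 3.17 in CLP, against 13.12, 13.39 and 13.59 in GMP, a difference of -10.22. Its partner S100a9 was at least 139-fold lower in CLP. Chil3, a chitinase-like lectin, Ngp, a granule protein, and Lcn2, lipocalin 2, were at the floor on all CLP arrays and at least 785-fold, 284-fold and 255-fold lower. Mean levels over the 12 genes were 3.26, 3.17 and 3.22 in CLP, against 8.14, 8.43 and 8.60 in GMP. Only 2 of these 11 calls remained when genes dim over all 26 arrays were left out, because most members were then not tested.

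Phagocytes take up and kill microbes with Fc receptors, innate sensors and an oxidase. Of 15 such genes, 8 fell in CLP and 7 did not pass, with a median of -0.89. Fcgr3, an Fc gamma receptor by which GMP are commonly sorted, measured 2.47, 2.50 and 2.50 in CLP, against 12.21, 12.35 and 12.13 in GMP, at least 853-fold lower (limma adjusted p = 3.73e-17). Cybb, the catalytic subunit of the oxidase, measured 4.75, 3.48 and 4.60 in CLP, against 11.13, 11.46 and 11.30 in GMP, and the cytosolic subunits Ncf1 and Ncf4 did not pass (differences -0.78 and 0.05). Cd14, a co-receptor for endotoxin, was at least 39.1-fold lower in CLP. Tlr4 fell by 2.71 on the log2 scale. Fcgr2b, the inhibitory Fc receptor, fell by 2.92, a call lost with the actin covariate (adjusted p = 0.145) or the spike block (0.248). Falls numbered 5 with dim genes left out.

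Myeloid cytokine receptors carry the signals that GMP need to divide and mature. Of 12 measured, 5 fell in CLP, 1 rose and the median was -0.39, where 11.6% of all genes fell and 16.7% rose. Csf2ra, a chain of the GM-CSF receptor, measured 7.54, 7.56 and 7.31 in CLP, against 10.35, 10.18 and 9.90 in GMP. Csf3r, the G-CSF receptor, fell by 2.17, and Csf2rb, the chain shared by several of these receptors, by 1.65. Csf1r, the M-CSF receptor, did not pass, at 12.45, 11.88 and 12.34 in CLP against 13.30, 13.16 and 13.03 in GMP (limma adjusted p = 0.105), although its arrays did not overlap and it did pass with the mean of its probe sets (adjusted p = 0.000887), in a fit on the 6 arrays alone (0.0208) and with dim genes left out (0.0468). Il4ra, a receptor chain for interleukin 4, was the member that rose, by 1.50. Under the spike block the falls numbered 3, and Ifngr1, the interferon gamma receptor, and Il4ra were lost.

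Among 12 myeloid transcription factors, 6 fell in CLP and 1 rose, with a median of -0.58. Cebpa, which GMP require to form, measured 4.81, 4.06 and 4.75 in CLP, against 9.07, 8.62 and 8.85 in GMP, a fall of 4.31 (SE 0.30, limma adjusted p = 8.66e-10). Its relatives Cebpd and Cebpb fell by 3.28 and 2.01, the second a call lost with the spike block (adjusted p = 0.093), and Gfi1, a repressor needed for neutrophils, by 2.01. Klf4, a factor of monocytes, fell by 4.45 with a large SE of 1.3, and was not called with the actin covariate (adjusted p = 0.139) or the spike block (0.205). Spi1, the gene of PU.1, stood at 8.69, 8.84 and 8.93 in CLP, against 9.17, 8.69 and 8.75 in GMP, with overlapping arrays. Irf8, a factor of monocytes, dendritic cells and B cells, was the member that rose, at 14.51, 14.68 and 14.51 in CLP, against 13.45, 13.18 and 12.95 in GMP. That rise of 1.37 (limma adjusted p = 0.00742) was not called with the actin covariate (0.0819) or the spike block (0.147). The factors that fell numbered 3 with the spike block.

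Genes of protein folding and secretion were lower in CLP over most of the list. Of 17 chaperones and folding enzymes of the endoplasmic reticulum, 14 fell and 0 rose, with a median of -1.13. Sdf2l1, a cofactor of the chaperone BiP, measured 7.01, 6.84 and 7.78 in CLP, against 10.60, 10.72 and 10.67 in GMP. The disulfide isomerases Pdia6, Pdia4 and Pdia3 fell by 2.40, 2.31 and 2.21, and the co-chaperone Dnajb11 by 1.59. Of the falls, 9 were called with the spike block. Lysosomal genes gave 7 falls and 1 rise among 14, with a median of -0.59. The proteases Ctsh and Ctsz had differences of -2.90 and -2.46, and Psap, Hexa and Lamp1, which serve lipid breakdown and the lysosomal membrane, of -1.83, -1.62 and -1.59. Ctss, the protease that trims the invariant chain for antigen presentation, was the member that rose, by 1.07 (limma adjusted p = 0.0385). The rise of Ctss was lost when any 1 CLP or GMP array was left out (adjusted p = 0.0531 to 0.106) and with the spike block.

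Lymphoid transcription factors rose in CLP in most cases where they were expressed. Of 25 measured, 16 rose and 0 fell, with a median of 1.92. Tox, a factor of developing T cells, and Ebf1, which commits cells to the B lineage, were at the floor on every GMP array. Tox measured 8.24, 7.83 and 7.73 in CLP, at least 54.3-fold higher, and Ebf1 measured 7.64, 6.98 and 5.02, at least 20.7-fold higher. Aff3, a nuclear protein of lymphoid cells, measured 13.55, 13.70 and 13.56 in CLP, against 8.50, 8.44 and 8.50 in GMP. Tox also averaged 7.02 in MPPFL- and 8.14 in MPPFL+, and Aff3 13.3 in each, while Ebf1 was at the floor there. Satb1, a chromatin organiser of lymphoid cells, and the E protein Tcf4 rose by 3.32 and 3.68. Notch1, the receptor that directs progenitors to the T lineage, rose by 3.09, the E protein Tcf3 by 2.23 and Ikzf1, which encodes Ikaros, by 1.60. Pax5, which maintains B cell identity, was at the floor on every CLP array.

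Genes of antigen receptor recombination were led by those that cut the DNA or add bases to its ends. Of 13 measured, 8 rose in CLP and 1 fell, with a median of 0.93. The nuclease genes Rag1 and Rag2 lie side by side on chromosome 2 with 0 protein-coding genes between them. Rag1 measured 10.82, 10.47 and 9.59 in CLP, against 2.22, 2.25 and 2.17 in GMP, at least 270-fold higher. Rag2 measured 9.29, 9.72 and 9.97 in CLP, against 4.28, 4.35 and 4.35 in GMP, a rise of 5.33 (SE 0.42, limma adjusted p = 5.93e-09). The end-joining genes changed by less, with Xrcc6 and Xrcc5, which encode the Ku subunits, up by 1.92 and 1.17. Xrcc5 was lost with the actin covariate (adjusted p = 0.0637) and the spike block (0.171). Polm, a polymerase of end joining, was the member that fell, near the floor in both groups, at 2.17 on each CLP array against 2.64, 2.56 and 3.09 in GMP, a call lost in a fit on the 6 arrays alone (adjusted p = 0.0519). With the spike block 4 members rose.

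Receptors for lymphoid growth and homing gave 8 rises and 2 falls among 14 measured, with a median of 0.99. Ccr9, the chemokine receptor that brings progenitors to the thymus, measured 10.40, 10.66 and 10.27 in CLP, against 2.33, 2.59 and 2.33 in GMP, at least 261-fold higher (limma adjusted p = 7.25e-10). Ccr7, which also serves homing, measured 7.02, 6.90 and 6.55 in CLP, against 2.18 on each GMP array, at least 25-fold higher. The members that fell were Cnr2, the peripheral cannabinoid receptor, by 3.19, and Il15ra, the interleukin 15 receptor alpha chain, by 2.27, a call lost with the spike block (adjusted p = 0.0523). Il2ra, which appears on later thymocytes, was at the floor on all 6 arrays.

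Genes of both lymphoid branches were present in CLP in part. In the B lineage list 8 of 18 rose and 0 fell, with a median of 0.25. Blnk measured 10.91, 11.07 and 10.88 in CLP, against 2.17 on each GMP array. Vpreb1, a surrogate light chain, measured 9.20, 8.63 and 8.45 in CLP, against 4.07, 4.67 and 4.67 in GMP, and Cd72, a surface protein of B cells, rose by the same 4.29. Cd72 also averaged 9.67 in MPPFL- and 10.10 in MPPFL+, where Vpreb1 averaged 3.72 and 4.66. Ly6d, which marks lymphoid progenitors biased to B cells, averaged 7.50 in CLP but also 6.91, 8.76 and 12.23 in DN1, DN2 and DN3. Against GMP it was at least 39.9-fold higher in CLP, and the kinase Blk at least 6.03-fold, a call lost with the spike block (adjusted p = 0.0726). By contrast Cd79a, a signalling chain of the B cell receptor, lay within 1 log2 unit of the floor on all 6 arrays, and 7 of the 18 genes did so. Rises numbered 5 with the spike block and 3 with dim genes left out.

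In the T lineage list 8 of 15 rose and 0 fell, with a median of 2.05. Lat, the adaptor protein of T cell receptor signalling, measured 8.48, 8.52 and 8.76 in CLP, against 2.86, 2.85 and 3.13 in GMP, at least 49.8-fold higher. Cd27, a costimulatory receptor, and Cd28, another, rose by 4.51 and 3.89. Cd247, the zeta chain of the T cell receptor complex, was at least 21.7-fold higher and Cd5, a surface inhibitor of that receptor, at least 13.1-fold. Lat was also at 8.51 in MPPFL-, 8.67 in MPPFL+ and 8.06 in CMP, and Cd27 at 10.4, 10.8 and 8.8. Means of Cd247, Cd28 and Cd5 in those populations were lower, between 2.21 and 4.03. Cd3e, Cd3d and Cd3g, which encode the other signalling chains of the complex, lay within 1 log2 unit of the floor on all 6 arrays. Only 5 of the 8 rises were called with dim genes left out.

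Genes of stem cells and early progenitors rose in CLP in 12 of 23 cases and fell in 2, with a median of 1.09. Mycn, a Myc family factor, measured 9.80, 10.08 and 9.94 in CLP, against 3.78, 3.78 and 3.51 in GMP, a rise of 6.25 (SE 0.35, limma adjusted p = 4.5e-11). Mecom and Meis1, factors of stem cells, rose by 4.43 and 3.63, Angpt1, a secreted ligand of the Tek receptor, by 3.33, and the Ets factor Erg by 2.77. The 2 members that fell were Gata2 (difference -2.08) and Runx1 (-1.47), factors that act early in blood cell formation. Kit, the stem cell factor receptor, did not pass, at 12.01, 11.75 and 11.48 in CLP against 12.42, 12.26 and 12.29 in GMP (limma adjusted p = 0.094), but it did with the mean of its probe sets (0.0053). Cd34 did not pass either, at 13.66, 13.31 and 13.37 in CLP against 12.91, 12.91 and 12.86 in GMP (limma adjusted p = 0.133), but it did in a fit on the 6 arrays alone (0.0182) and with the actin covariate (0.044).

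**Figure D3:**
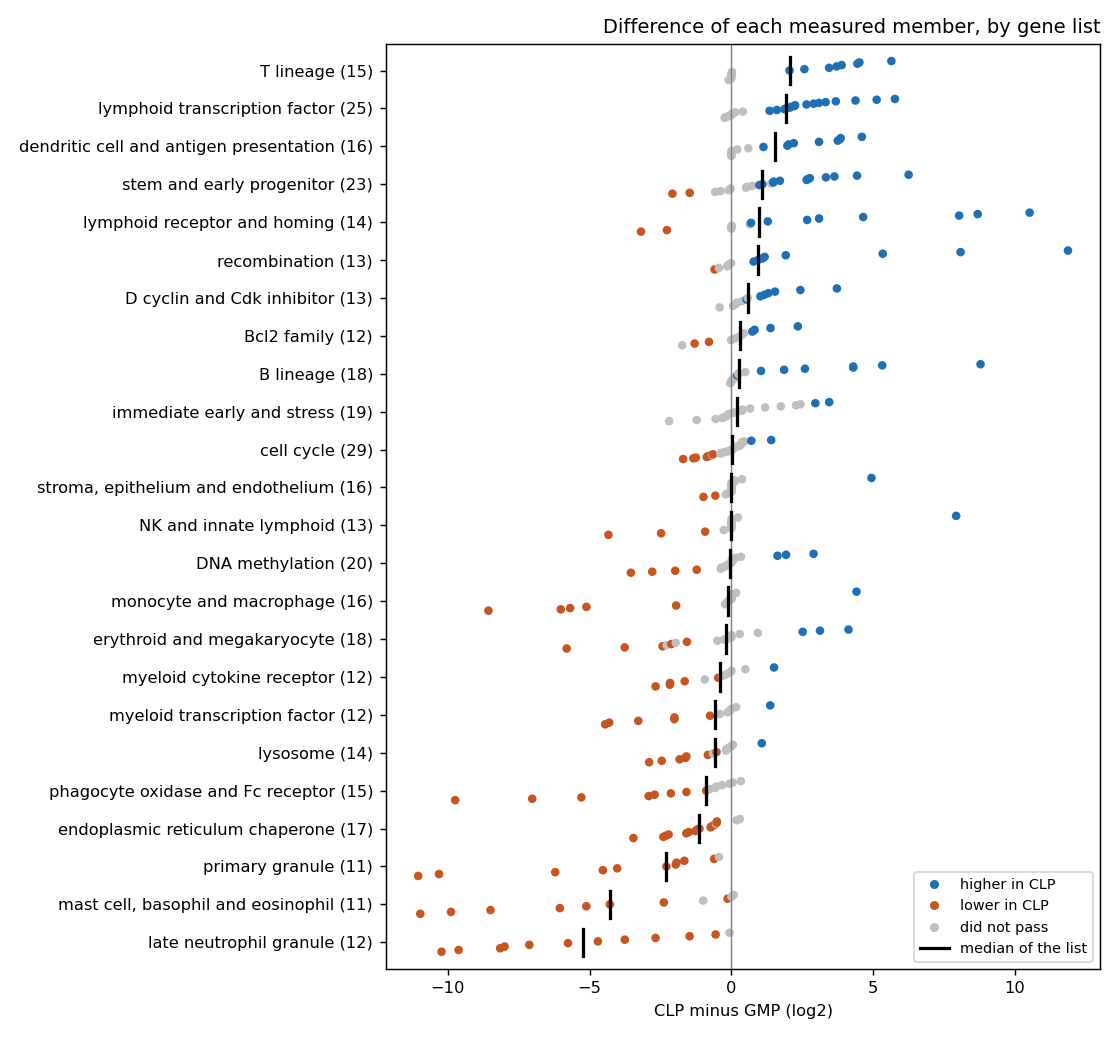
Difference of each measured member (CLP minus GMP, log2) in the 24 gene lists, with the number of measured members in parentheses and a black bar at the median of the list. Blue points passed and are higher in CLP, orange points passed and are lower in CLP, grey points did not pass. Late neutrophil granule genes have the lowest median, -5.24, and T lineage genes the highest, 2.05.

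The labels were then read against marker genes. All 5 markers set for CLP (Dntt, Il7r, Flt3, Rag1 and Ly6d) were higher in CLP. Of those set for GMP, Elane, Mpo, Cebpa and Fcgr3 were lower in CLP and Csf1r did not pass. The call of Mpo was lost in the fits given above. Markers by which cells are commonly sorted, such as Fcgr3 for GMP, are no separate check of the labels. Genes of other cell types were partly silent. Cd3e of T cells, Klf1 of erythroid cells, Ncr1 of NK cells and Col1a1 of stroma all lay within 1 log2 unit of the floor on the 6 arrays. Other members of the same lists were well above it, among them Pdgfrb, Klrd1 and Lat in CLP, with means of 12.03, 11.33 and 8.59, and Nkg7 and Pf4 in GMP, with means of 13.46 and 9.24. The eosinophil genes Prg2 and Epx averaged 13.14 and 10.66 in GMP. Pecam1, which endothelium shares with progenitors, was at 7.60, 7.07 and 7.55 in CLP against 7.35, 6.99 and 6.76 in GMP and did not pass.

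Genes of eosinophils, basophils and mast cells were high on the GMP arrays. Of 11 measured, 8 fell in CLP and 0 rose, with a median of -4.29. The list averaged 3.21, 3.17 and 3.32 on the CLP arrays, against 8.02, 7.36 and 7.47 on the GMP arrays. Prg2, the major basic protein of eosinophils, was at the floor in CLP, against 13.36, 12.87 and 13.20 in GMP, at least 2000-fold lower (limma adjusted p = 1.45e-13). Epx, the eosinophil peroxidase, and Prg3 were also at the floor on every CLP array and at least 360-fold and 34.7-fold lower. Hdc, which makes histamine, measured 2.97, 3.75 and 2.80 in CLP, against 13.06, 13.14 and 12.97 in GMP, and Ms4a2, a chain of the IgE receptor, fell by 6.05. The mast cell gene Cma1 was at the floor on all 6 arrays. Whether cells of these types were present on the GMP side was not tested. With dim genes left out 3 members were called.

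Erythroid and megakaryocyte genes were mixed, with 5 falls and 3 rises among 18 measured and a median of -0.18, so that rises were as frequent as among all genes (16.7%), where 11.6% fell. Pf4, a platelet chemokine, was at 3.44 on each CLP array, against 9.28, 9.13 and 9.32 in GMP, and Itga2b, the platelet integrin, fell by 3.76. Gata1 measured 3.69, 3.69 and 3.97 in CLP, against 5.995, 5.76 and 5.94 in GMP, a call lost with the spike block (adjusted p = 0.0597). In the other direction Gfi1b, a repressor, Car2, a carbonic anhydrase, and Zfpm1, the cofactor of Gata1, rose by 4.13, 3.12 and 2.51. Klf1 and Epor, genes of committed erythroid cells, were near the floor on all 6 arrays. The list averaged 4.44, 4.34 and 4.39 on CLP arrays, against 4.61, 4.92 and 5.28 on GMP arrays. Falls numbered 2 with the spike block and 3 with dim genes left out. The part of such cells in the comparison was not tested.

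Monocyte and macrophage genes gave 5 falls and 1 rise among 16, with a median of -0.12, beside 11.6% falls and 16.7% rises among all genes. Vcam1, an adhesion molecule, measured 4.50, 2.17 and 2.29 in CLP, against 11.34, 11.70 and 11.60 in GMP, a difference of -8.56. Adgre1, a surface receptor that marks macrophages, was at least 64.7-fold lower in CLP, F13a1, a clotting factor of monocytes, fell by 5.69 and Ccr2, the monocyte chemokine receptor, by 5.11. Marco and Timd4, genes of resident macrophages, were at the floor on all 6 arrays. Cd163, a scavenger receptor of macrophages, was the member that rose, at 9.81, 9.37 and 9.59 in CLP, against 5.32, 5.07 and 5.14 in GMP. List means were 5.04, 4.70 and 4.80 on CLP arrays, against 6.32, 6.28 and 6.32 on GMP arrays, and the part of mature cells was not tested.

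Genes of dendritic cells and antigen presentation were higher in CLP in 9 of 16 cases and lower in 0, with a median of 1.55. Itgax, which encodes CD11c, was at least 24.2-fold higher. H2-Aa, H2-Eb1 and Cd74, of the class II presentation pathway, rose by 3.85, 3.75 and 3.82, and H2-Aa measured 10.11, 11.02 and 10.21 in CLP, against 7.53, 5.81 and 6.44 in GMP. Siglech, a marker of plasmacytoid dendritic cells, measured 5.67, 4.30 and 5.81 in CLP and lay at the floor in GMP, at least 8.50-fold higher. Xcr1, Cd209a and Cd83, of other dendritic cells, were at the floor on all 6 arrays. List means were 5.77, 5.78 and 5.89 on CLP arrays, against 4.18, 4.05 and 4.10 on GMP arrays. The part of dendritic cells in these values was not tested.

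NK and innate lymphoid genes were mostly silent, with 9 of 13 near the floor in both populations and 1 rise against 3 falls. Klrd1, which encodes the CD94 chain of NK receptors, measured 11.45, 11.10 and 11.42 in CLP, against 3.40, 3.41 and 3.40 in GMP, a rise of 7.92 (SE 0.41, limma adjusted p = 1.04e-11). Zbtb16, a factor of innate lymphocytes, was at least 20.2-fold lower in CLP, Klrk1 at least 1.90-fold lower, and Nkg7, a granule protein of cytotoxic cells, fell by 2.48. List means were 3.62, 3.61 and 3.69 on CLP arrays, against 3.62, 3.64 and 3.64 on GMP arrays. Stroma, epithelium and endothelium genes were near the floor in both groups for 13 of 16, with 1 rise and 2 falls, a smaller share than the 28.3% of all genes that passed. Pdgfrb, a growth factor receptor of stromal cells, rose by 4.94, at 12.08, 12.10 and 11.92 in CLP, against 7.70, 6.72 and 6.87 in GMP. The collagen genes Col1a1, Col1a2 and Col3a1 were at the floor on all 6 arrays. Krt18, a keratin of simple epithelia, fell by 0.99 (limma adjusted p = 0.0266). Its partner Krt8 passed as lower (0.0371) while near the floor in both groups, at 2.17 on each CLP array against 3.03, 2.17 and 3.01 in GMP. With 1 array left out Krt18 was still called only without CLP replicate 1 and Krt8 only without GMP replicate 2. Means over the stroma list were 3.44, 3.36 and 3.40 on CLP arrays, against 3.26, 3.10 and 3.15 on GMP arrays, and the part of such cells was not tested.

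Proliferation genes passed about as often as genes at large, dim genes included. Among 29 cell cycle genes 7 fell in CLP and 2 rose, with a median of 0.03, where 28.3% of all genes passed. The list was bright, with means of 12.12, 11.99 and 11.93 on CLP arrays, against 12.18, 12.11 and 12.17 on GMP arrays. With dim genes left out, 4486 of 9097 genes passed, while the list still gave 2 rises and 7 falls. The mitotic kinases Plk1 and Aurka fell by 1.70 and 1.34, and Rrm1, of ribonucleotide reductase, and the S phase factor E2f1 by 0.87 and 1.26. Ccnb2, a mitotic cyclin, rose by 1.40, and Foxm1, a mitotic factor, by 0.70. With the actin covariate 3 genes fell and 4 rose, and with the spike block 1 fell and 1 rose. Foxm1 was lost without CLP replicate 1 or 2 or any 1 GMP array (adjusted p = 0.0534 to 0.225), after quantile normalization (0.218) and with the mean of probe sets (0.201). E2f1 was lost without CLP replicate 3 (0.0524) and with the actin covariate (0.15). Aurka was lost with the mean of probe sets (0.051) and the actin covariate (0.054), and Rrm1 with the actin covariate (0.0647). With the spike block Foxm1, E2f1, Aurka and Rrm1 were lost (0.0934 to 0.447). Plk1 and Ccnb2 kept their calls in each of these fits.

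D cyclins and Cdk inhibitors differed in 1 direction, with 7 of 13 higher in CLP and 0 lower (median 0.58). Cdkn1a, the inhibitor p21, measured 10.11, 10.76 and 10.42 in CLP, against 7.02, 6.42 and 6.69 in GMP, a rise of 3.72 (SE 0.52, limma adjusted p = 1.39e-05). Cdkn1c, the inhibitor p57, was at least 5.39-fold higher, a call lost with the spike block (adjusted p = 0.118). Ccnd2, Ccnd3 and Ccnd1, the cyclins of early G1, rose by 1.54, 1.16 and 1.30. Ccnd1 was lost when any 1 CLP or GMP array was left out (adjusted p = 0.0643 to 0.0754), after quantile normalization (0.111), and with the actin covariate (0.158) or the spike block (0.405). With the spike block 4 members rose.

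Bcl2 family genes, which set cell survival, gave 4 rises and 2 falls among 12, with a median of 0.32, where 16.7% of all genes rose and 11.6% fell. With dim genes left out, 2809 of 9097 genes rose and 1677 fell, and the list again gave 4 rises and 2 falls. Bmf, a pro-apoptotic member, rose by 2.34 and Bcl2l1, a survival gene, by 0.82. Bcl2 itself measured 11.32, 12.15 and 11.13 in CLP, against 9.82, 10.29 and 10.37 in GMP, a rise of 1.38 (limma adjusted p = 0.0383) that was lost without CLP replicate 1 or 2 or any 1 GMP array (0.0578 to 0.178) and with the actin covariate (0.176). Bcl2l2, a survival gene, fell by 1.30 and Bid, a pro-apoptotic member, by 0.79. The call of Bcl2l2 was lost when any 1 CLP or GMP array was left out (adjusted p = 0.0504 to 0.143). With the actin covariate 2 members rose and 1 fell, Bmf being lost (adjusted p = 0.0596), and with the spike block 1 rose and 0 fell.

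Genes of DNA methylation passed about as often as genes at large. Of 20 measured, 3 rose and 4 fell, with a median of -0.03, where 28.3% of all genes passed. With dim genes left out, 4486 of 9097 genes passed, while the list still gave 3 rises and 4 falls. Dnmt3b, a de novo methyltransferase, measured 10.41, 10.65 and 11.36 in CLP, against 8.01, 7.75 and 7.98 in GMP, a rise of 2.90 (SE 0.33, limma adjusted p = 1.14e-06). Dnmt3a, the other, measured 9.91, 10.15 and 9.89 in CLP, against 8.20, 7.77 and 8.19 in GMP, a rise of 1.93 with this probe set. Another probe set of Dnmt3a passed in the opposite direction, and the mean of its probe sets gave -0.10 (adjusted p = 0.966). Tet1, which oxidises methylcytosine, rose by 1.63 (limma adjusted p = 0.0204), a call lost without CLP replicate 1 or 2, without GMP replicate 1 or 2 (adjusted p = 0.0527 to 0.0655) and with the spike block (0.273). Dnmt1, which maintains methylation, stood at 13.27, 13.62 and 13.42 in CLP against 13.28, 13.002 and 13.01 in GMP and did not pass. Its partner Uhrf1 had a difference of 0.15 that did not pass, and the mean of its probe sets gave -0.93 (adjusted p = 0.0491). Tet2 did not pass (difference -0.36), and Tet3 and Dnmt3l were near the floor on all 6 arrays.

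The members that fell were Idh1 and Idh2, isocitrate dehydrogenases that supply the cofactor of Tet enzymes, and Gadd45a and Gadd45b, stress genes linked to demethylation. Idh1 measured 9.64, 9.51 and 10.30 in CLP, against 13.37, 13.42 and 13.29 in GMP, a fall of 3.54 (SE 0.24, limma adjusted p = 7.43e-10). Gadd45a fell by 2.79, Gadd45b by 1.98 and Idh2 by 1.22, and another probe set of Idh2 passed in the opposite direction. Gadd45b was lost without CLP replicate 1 or 3 and without GMP replicate 1 or 2 (adjusted p = 0.0571 to 0.0627), and with the spike block (0.345). Immediate early and stress genes, induced within minutes of a stimulus or of cell isolation, gave 2 rises and 0 falls among 19, with a median of 0.20, a smaller share of rises than the 16.7% of all genes. A fit on the 6 arrays alone gave 6 rises and 1 fall. Egr1 and Junb rose by 3.45 and 2.96. Junb was lost without CLP replicate 1 (adjusted p = 0.098) or GMP replicate 3 (0.0827), and with the spike block both were lost (Egr1 0.104, Junb 0.283). List means were 9.79, 9.63 and 9.53 on CLP arrays, against 9.09, 9.20 and 8.95 on GMP arrays.

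The other 6 populations show where the CLP and GMP levels are shared, as a description with no test. For the 2071 genes higher in CLP by at least 1 log2 unit, 82.9% to 88.9% lay nearer the CLP than the GMP mean on each MPPFL+ array (median 88.3%), and 64.0% to 68.3% on MPPFL- arrays. The share was 53.0% to 59.1% on DN1, 44.5% to 50.6% on DN2 and 53.9% to 64.9% on DN3 arrays. CMP arrays had 31.2% to 40.6%. For the 1191 genes lower in CLP by that size, the share nearer the GMP mean was 29.6% to 44.2% on CMP arrays and between 13.3% and 22.8% on arrays of the other 5 populations. On every array of the other populations, CMP included, under 50% of these genes lay nearer the GMP mean. Spike-in level moves with part of this pattern, since MPPFL+ and CLP arrays were alike (means 4.48 and 4.42) and GMP arrays stood apart (8.05), and its part was not tested.

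**Figure D4:**
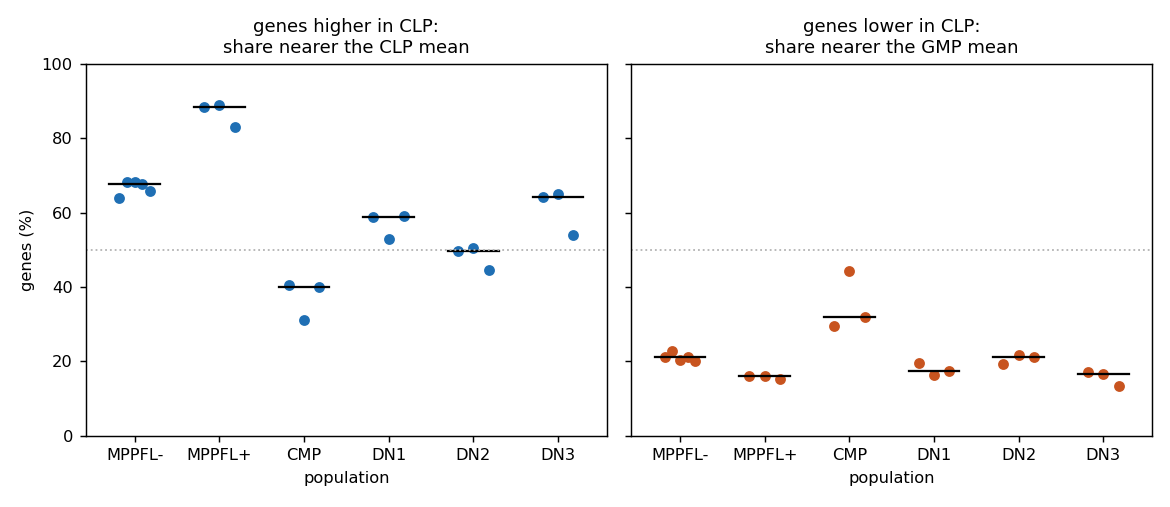
Share of genes (%) on each array of the other 6 populations that lay nearer the CLP mean, for genes higher in CLP (left), and nearer the GMP mean, for genes lower in CLP (right). Points are arrays, bars are medians and the dotted line is 50%. MPPFL+ has the highest shares on the left, 82.9% to 88.9%, and CMP the highest on the right, 29.6% to 44.2%.

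Single genes followed several patterns across populations. Dntt was at 14.06 in CLP, 2.19 in GMP, 13.08 in MPPFL+, 7.85 in MPPFL- and 11.18 in CMP, and at 13.41 to 14.01 in DN1, DN2 and DN3. Its neighbour Blnk was at 10.95 in CLP, 4.99 in MPPFL+ and at the floor in the other 6. Ebf1 was likewise at 6.55 in CLP and at or near the floor in every other population, as was Siglech at 5.26 in CLP. Il7r was at 13.23 in CLP and 2.72 in GMP, at 10.53 to 12.89 in DN1, DN2 and DN3, and at 4.81 in MPPFL+. Prg2, Epx and Dmkn were high in GMP alone, and in CMP they were at 2.91, 2.17 and 4.84. Elane was at 3.44 in CLP, 13.75 in GMP and 10.58 in CMP, with 5.71 in MPPFL- and 4.38 in MPPFL+. Prtn3 differed from it, with 12.28 in MPPFL- and 12.61 in MPPFL+ beside 10.01 in CLP and 14.54 in GMP. Irf8 was high in CLP (14.56), GMP (13.20) and CMP (13.38) and lower elsewhere, between 6.86 in DN2 and 10.90 in MPPFL+.

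**Figure D5:**
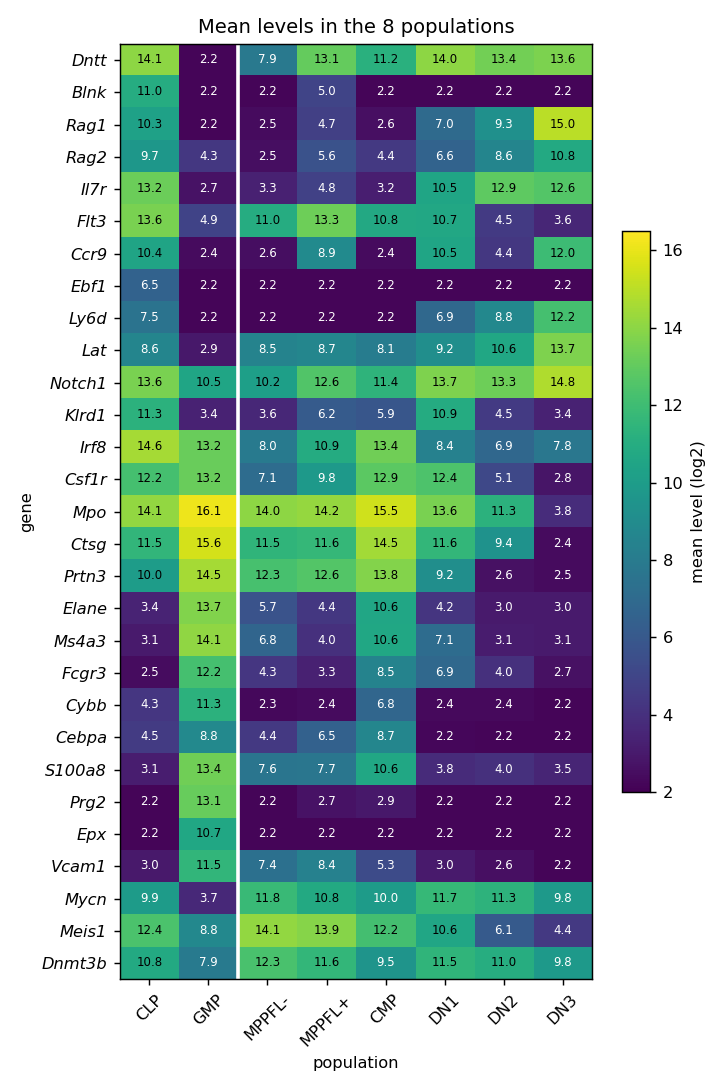
Mean log2 level of 29 genes (rows) in CLP, GMP and the other 6 populations (columns; n = 5 for MPPFL-, n = 3 for each other), with the value in each cell. Levels are to be read along a row, since different probe sets are not compared. Blnk and Ebf1 are high in CLP alone, and Prg2 and Epx in GMP alone.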

How the data were processed

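Values are log2 signals per probe set as deposited by the authors, and no source used here states the normalization behind them. Per the labels' protocols, Trizol RNA was labelled with biotin for the arrays. The annotation gave a single gene for 34945 of 45101 probe sets, several genes for 932 and no gene for 9160, besides 64 control probe sets. Where a gene had several probe sets, the one with the highest mean was used, which gave 18193 genes. The functions lmFit and eBayes of limma 3.58.1 in R 4.3.3 fitted all 26 arrays at once, two-sided, with population as the only term and 18 residual degrees of freedom. The residual spread is thus shared with the other populations, and the number of arrays limits the precision. Differences are CLP minus GMP on the log2 scale. The fit was tested on simulated data.

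Genes are named by size of change, up to 12 for rises and 12 for falls among genes that passed, without overlap of arrays and with a mean of at least 5.31 in the higher population. Genes without an assigned name were passed over. To these come up to 5 members per list with the largest difference among those passed, up to 3 that passed against the majority of their list, fixed markers and DNA methylation genes. Notch1, Ikzf1, Tcf3, Spi1, Pax5, Cd79a, Il2ra, Ncf1, Ncf4, Cd3d, Cd3g and other members that are given without a call or that share a sentence with named genes fall outside that rule and were chosen after their values were seen. Members and lists were chosen with earlier results of these data known, and lists got no test of their own. Members not measured are left out. Alternatives were a fit on the 6 arrays alone, quantile normalization, the mean of a gene's probe sets, every probe set, a filter on dim genes, another eBayes setting, stricter thresholds, each array left out, the replicate number as a block, the actin covariate and the spike block. The promoter windows and gene neighbours are from RefSeq tables of GRCm38.p6, and no source used here names the build behind the array annotation.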

Additional observations from a re-analysis of the deposited data

How the results depend on the processing

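The number of genes that passed lay between 4355 and 5813 under 7 other settings, which were the 6 CLP and GMP arrays alone, quantile normalization, the mean of a gene's probe sets, dim genes left out, the replicate block, eBayes with trend and robust, and the actin covariate. The spike-in cluster as a random block moved it to 2317, with 1411 higher and 906 lower in CLP, and all 2317 were among the 5152. Their direction could not change, since that fit left the CLP minus GMP differences as they were and altered only their SE. Testing every probe set gave 9351 calls, 5107 higher and 4244 lower, over more features. Requiring a difference of at least 1 gave 3262, with 1191 lower. Leaving out 1 array gave 4497 to 4780 genes, 2561 to 2768 higher and 1747 to 2080 lower, and 180 to 190 members of lists, against 198 with all arrays. Counting only genes at or above the median level in the higher population, an alternative chosen after seeing the data, gave 4479. With the mean of probe sets 19 genes passed in the opposite direction, and Dnmt3a (-0.099) and Uhrf1 (-0.933) changed sign. The cause was not tested. Of 149 named genes, 29 lost their call with the spike block and 14 with the actin covariate. With the actin covariate 0 reversed, and with the spike block a reversal was not possible. Lists with 0 members called in a direction gained 1 or 2 such calls for lymphoid transcription factors, phagocyte genes, D cyclins with Cdk inhibitors and immediate early genes under some alternatives. Replicate numbers did not pair the arrays, as deviations of same-numbered CLP and GMP arrays correlated at -0.0105, 0.0007 and -0.0994. The fit with the replicate block gave 4783 genes, 2822 higher and 1961 lower, and of the named genes Bcl2, Bcl2l2, Ccnd1, Ctss and Krt18 were not called in it (adjusted p = 0.0535 to 0.0777). Genes at the floor in both populations have no measured difference, and within 1 unit of it only small ones can be seen.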

Other observations

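Several genes differ from a neighbour on the same chromosome. Vpreb1 and Igll1, which encode the 2 parts of the surrogate light chain, have 0 protein-coding genes between them on chromosome 16. Vpreb1 averaged 8.76 in CLP and 4.47 in GMP, while Igll1 stayed within 1 log2 unit of the floor on all 6 arrays. Epx and Mpo lie on chromosome 11 with 2 protein-coding genes between them, and Epx was at the floor on every CLP array while Mpo was not.

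Of 1611 genes with at least 2 probe sets that passed, 182 had probe sets that passed in opposite directions. Among 9160 probe sets named with no gene, 503 were higher and 425 lower in CLP.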
